A study of Mus musculus with 24 samples.

Results

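Apolipoproteins and the proteins that load or unload them were examined in liver through 10 genes, Apoa1, Apoa2, Apoa4, Apoa5, Apob, Apoc3, Apoe, Mttp, Scarb1 and Abca1. Every probe set whose annotation named 1 of these genes alone was taken, which gave 20 probe sets of the 45037 tested and 10 genes of 18193. Gene expression was measured on 24 Affymetrix Mouse Genome arrays, 1 per mouse, in RNA from the livers of male C57BL6/J mice that were 8 weeks old when they entered the study. All mice received a western diet, with 6% sucrose in the drinking water, and a weekly intravenous dose of modified siRNA at 1 mg per kg for 7 weeks. Keap1-specific siRNA was given to 8 mice as siKeap1-1 and to another 8 as siKeap1-2, and the remaining 8 received siControl, a scrambled siRNA. Keap1 holds the transcription factor Nrf2 in check by presenting it for degradation. All siRNAs were carried by lipid nanoparticles that reach mainly hepatocytes, so the knockdown need not extend to the other cells of the liver. According to the methods, each group held fasted as well as fed mice, but the labels do not tell them apart. Differences that come with feeding are thus contained in the variation between mice of a group.

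The liver exports triglyceride in very low density lipoproteins (VLDL). Each particle is built around 1 molecule of apolipoprotein B, encoded by Apob, and the microsomal triglyceride transfer protein, encoded by Mttp, loads lipid onto it in the endoplasmic reticulum. High density lipoproteins (HDL) arise when Abca1, a transporter of the cell membrane, passes cholesterol and phospholipid to apolipoprotein A-I, the product of Apoa1. Apoa2 encodes the next most abundant protein of HDL, and Scarb1 encodes the receptor SR-BI, through which hepatocytes take up cholesterol ester from HDL. Apoc3 and Apoa5 act on the removal of triglyceride from plasma, the product of Apoc3 as an inhibitor and that of Apoa5 as a promoter of lipolysis by lipoprotein lipase. Apolipoprotein E is the ligand by which remnant particles are cleared, and apolipoprotein A-IV travels on triglyceride-rich particles and HDL.

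The deposited values are log2 signals, so a difference of 1 stands for a doubling of the signal. The median signal of an array lay between 5.84 and 5.96 and the highest signal between 15.12 and 15.21. Keap1 had log2 signals of 7.21 to 7.93 (median 7.47) with siKeap1-1, 8.03 to 8.59 (8.23) with siKeap1-2 and 9.33 to 10.03 (9.57) with siControl. The 3 groups did not overlap. The log2 difference of Keap1 was -2.13 for siKeap1-1 (limma, adjusted p = 2.28e-12) and -1.36 for siKeap1-2 (adjusted p = 1.89e-08). These values are from the brightest Keap1 probe set. The other probe set of Keap1 differed by -0.42 for siKeap1-1 and -0.44 for siKeap1-2. The mean log2 signal of 8 hepatocyte markers was 12.92 to 13.32 with siKeap1-1, 12.93 to 13.48 with siKeap1-2 and 13.11 to 13.44 with siControl, and none of the 8 passed the test. With either siRNA 6 of the 8 had a negative difference from siControl and 2 a positive one. Their median difference was -0.07 for siKeap1-1 (0.01 over all genes) and -0.04 for siKeap1-2 (-0.01 over all genes). The largest absolute difference was 0.52 for siKeap1-1 (Ass1, with group means of only 6.70 to 7.22) and 0.42 for siKeap1-2 (Tat). Tat was at -0.52 ± 0.17 for siKeap1-1 (limma, adjusted p = 0.0532) and at -0.42 ± 0.17 for siKeap1-2 (adjusted p = 0.145). At an unadjusted p under 0.05 (limma), 3 of the 8 were lower with siKeap1-1 and 1 with siKeap1-2. The share of all genes at that threshold is not given here. A control probe set for 18S ribosomal RNA differed within the groups by replicate number. It lay at 10.17 to 10.44 in replicates 1 to 3 and at 11.17 to 11.43 in replicates 4 to 8 with siKeap1-1, and at 10.82 to 11.12 and 10.45 to 10.96 in the same replicates with siKeap1-2. With siControl it lay at 10.34 to 10.77 in replicates 1 to 3 and at 8.86 to 9.54 in replicates 4 to 8. In whole liver RNA, fewer cells of a type and less RNA per cell cannot be told apart.

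The first question was whether Keap1 suppression changed the expression of the 10 genes relative to siControl. Abca1 was lower with both siRNAs, the other 9 genes did not pass the test at their brightest probe set, and a second, dimmer probe set of Apob was higher. Of the 20 probe sets, 1 was higher and 1 lower with siKeap1-1 at an adjusted p under 0.05 (limma, Benjamini-Hochberg over all 45037 probe sets), where 4.51% of all probe sets were higher and 4.48% lower. With siKeap1-2, 1 of 20 was higher and 1 lower, against 3.15% and 2.96% of all probe sets. Each gene was then represented by its brightest probe set. Of the 10 genes, 0 were higher and 1 lower with siKeap1-1, against 5.27% and 5.08% of all genes. With siKeap1-2, 0 were higher and 1 lower, against 3.14% and 4.2% of all genes. At an unadjusted p under 0.05 (limma), 1 gene was higher (Apoe) and 1 lower (Abca1) with either siRNA. The share of all genes at that threshold is not given here, so these counts cannot be judged against it. The median absolute log2 difference of the 10 genes was 0.07 with siKeap1-1 and 0.04 with siKeap1-2, against 0.11 and 0.10 over all genes. The 2 comparisons share the siControl mice.

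**Figure D1:**
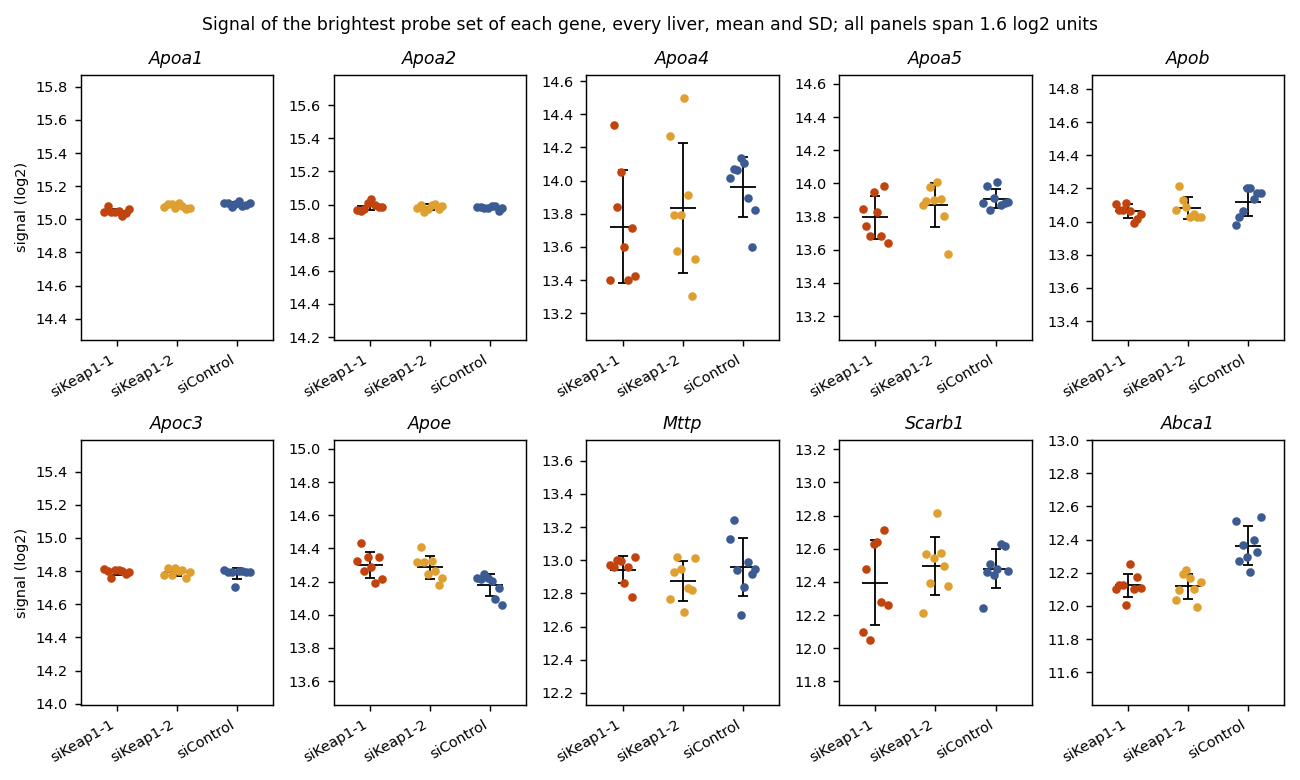
Log2 signal of the brightest probe set of each of the 10 genes in every liver, with siKeap1-1, siKeap1-2 and siControl from left to right (8 mice per group, points are mice, bars are the mean and SD, and every panel spans the same number of log2 units). Abca1 has 7 of 8 mice of either Keap1 siRNA below all siControl mice, Apoa1, Apoa2 and Apoc3 hardly vary, and Apoa4 and Scarb1 spread widely within groups.

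Abca1 was the member called lower at its brightest probe set (1421840_at). Its log2 signal was 12.00 to 12.25 (median 12.12) with siKeap1-1, 11.99 to 12.21 (12.12) with siKeap1-2 and 12.20 to 12.53 (12.35) with siControl. With each Keap1 siRNA, 7 of 8 mice lay below the lowest siControl mouse, and the remaining mouse lay just inside the siControl range. The log2 difference was -0.24 ± 0.05 (SE) for siKeap1-1, a change of -15.3% in signal (limma, adjusted p = 0.00557). For siKeap1-2 it was -0.25 ± 0.05, a change of -15.7% (adjusted p = 0.00652). In an exact permutation test over the 12870 ways to divide the mice (two-sided, unadjusted), p was 0.000311 for either siRNA. Between siKeap1-1 and siKeap1-2 the difference was 0.01, with a 95% interval from -0.10 to 0.12. When any 1 mouse was left out, Abca1 was still called, at -0.26 to -0.22 for siKeap1-1 and at -0.27 to -0.22 for siKeap1-2. The call was lost when the 18S signal was a covariate (-0.25 and -0.26, adjusted p = 0.0716 and 0.137), and for siKeap1-2 when siControl replicates 1 to 3 were the only controls (-0.27, adjusted p = 0.0964). It was also lost for the mean over the 3 probe sets of Abca1 (-0.17 and -0.19, adjusted p = 0.0852 and 0.0667). Within replicates 1 to 3 of each group the differences were -0.27 and -0.28 (limma, adjusted p = 0.247 and 0.525) and within replicates 4 to 8 -0.22 and -0.23 (adjusted p = 0.0813 and 0.0985), also without a call. The other probe sets of Abca1 lay below the median of the arrays, with group means between 4.85 and 5.22. Their differences were -0.23 and -0.03 for siKeap1-1, and -0.12 and -0.19 for siKeap1-2, and none passed the test (adjusted p between 0.186 and 0.927). Macrophages also use Abca1. The mean log2 signal of 7 Kupffer cell and macrophage markers was 9.86 to 11.00 with siKeap1-1, 10.08 to 11.32 with siKeap1-2 and 10.22 to 11.15 with siControl. Of these 7, 5 had a negative difference from siControl and 2 a positive one, for each siRNA alike. Their median difference was -0.13 for siKeap1-1 (0.01 over all genes) and -0.03 for siKeap1-2 (-0.01 over all genes). Vsig4 was at -0.60 ± 0.16 for siKeap1-1 (limma, adjusted p = 0.0167) and at -0.41 ± 0.16 for siKeap1-2 (adjusted p = 0.117). Marco was at 0.69 ± 0.36 for siKeap1-1 (limma, adjusted p = 0.237) and at 1.49 ± 0.36 for siKeap1-2 (adjusted p = 0.0114). No other marker of the 7 passed the test. The part of these markers in the Abca1 signal was not tested.

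The 250 bases before the annotated start of Abca1 are shown because it was the member called at its brightest probe set (RefSeq, GRCm38.p6, chr4:53159896-53160145, minus strand, 5′ to 3′). Capitals mark the E-box letters CACGTG, the GC box letters GGGCGG and, nearest to the start, the TATA box letters TATAAA.
Abca1: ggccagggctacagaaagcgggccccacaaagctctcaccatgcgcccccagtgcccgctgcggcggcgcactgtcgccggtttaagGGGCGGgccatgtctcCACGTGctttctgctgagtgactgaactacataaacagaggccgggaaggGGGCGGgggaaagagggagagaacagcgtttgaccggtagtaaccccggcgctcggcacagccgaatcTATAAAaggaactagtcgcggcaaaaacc
Among the upstream windows of 250 bases in the same set, 32851 in all, 6.02% held CACGTG, 32.7% GGGCGG and 12.4% TATAAA, on either strand. Windows were found for 8 of the 10 genes. CACGTG was present in those of Abca1 and Apoa5, GGGCGG in that of Abca1 alone, and TATAAA in those of Apoa2, Apoa5, Apob, Apoe and Abca1. The core of the antioxidant response element, TGACNNNGC, which Nrf2 binds, was in 0 of the 8 windows and in 10.2% of all, and AGGTCA, a recognition site of nuclear receptors, was in that of Apoa2 and in 14% of all. These matches describe letters in a short window and not sites of binding.

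The acceptor of the Abca1 pathway, Apoa1, was measured by 4 probe sets, all of which lay close to the highest signal of their arrays. At the brightest (1419232_a_at) the log2 signal was 15.02 to 15.08 (median 15.05) with siKeap1-1, 15.06 to 15.10 (15.08) with siKeap1-2 and 15.08 to 15.11 (15.09) with siControl. The signals stood 0.04 to 0.16 below the highest signal of the same array, and whether the upper end of the scale narrowed them was not tested. With siKeap1-1, 7 of 8 mice lay below the lowest siControl mouse at 3 of the 4 probe sets, and all 8 at 1419233_x_at. The 4 probe sets measure the same gene in the same mice and are not separate observations. The share of all probe sets that separated as far is not given here, so these counts cannot be judged against it. The differences were -0.04 to -0.05 for siKeap1-1, and -0.01 to -0.02 for siKeap1-2, and limma called none (adjusted p between 0.456 and 0.911). The limma SE was 0.04, above the SD within groups of 0.01, because the test moderates each spread towards that of all probe sets. With an intensity trend and robust moderation, Apoa1 at its brightest probe set was called lower for siKeap1-1 (-0.04, limma over genes, adjusted p = 0.0455). Exact permutation of single probe sets (two-sided, unadjusted, 60 such tests over the 20 probe sets) gave p = 0.000311 for 3 probe sets with siKeap1-1 and p = 0.000155 for 1419233_x_at, the smallest value that these splits allow. With siKeap1-2 the exact p lay between 0.00668 and 0.185. After quantile normalization of the arrays the siKeap1-1 difference of the brightest probe set was 0. That method gives probe sets of equal rank equal values. Near the top of the scale this 0 therefore cannot show whether the signals differed.

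Apoa2 lay at 14.96 to 15.03 (median 14.98) with siKeap1-1, 14.95 to 15.01 (14.99) with siKeap1-2 and 14.96 to 14.99 (14.98) with siControl. With siKeap1-1 3 mice and with siKeap1-2 4 mice lay above all siControl mice, while 1 mouse of each lay below them. The differences were 0.01 and 0.00, each with a 95% interval from -0.07 to 0.08. Scarb1 had 3 probe sets, and the brightest (1455820_x_at) lay at 12.05 to 12.71 (median 12.38) with siKeap1-1, 12.21 to 12.81 (12.52) with siKeap1-2 and 12.24 to 12.63 (12.47) with siControl. The siKeap1-1 mice spread most, with 2 below and 3 above all siControl mice. The difference was -0.09 ± 0.10 with siKeap1-1 (limma, adjusted p = 0.652) and 0.02 ± 0.10 with siKeap1-2 (adjusted p = 0.952). The other Scarb1 probe sets gave -0.12 and 0.04 with siKeap1-1 and -0.00 and 0.07 with siKeap1-2, so that the sign differed between probe sets of the same gene. None passed the test.

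Apob and Mttp, which form the core of VLDL assembly, did not pass the test at their brightest probe sets. Apob at 1455593_at lay at 13.99 to 14.11 (median 14.07) with siKeap1-1, 14.03 to 14.21 (14.06) with siKeap1-2 and 13.98 to 14.20 (14.15) with siControl. The ranges overlapped, and the differences were -0.06 ± 0.05 (limma, adjusted p = 0.495) and -0.04 ± 0.05 (adjusted p = 0.692). Mttp at 1419400_at lay at 12.78 to 13.02 (median 12.97) with siKeap1-1, 12.69 to 13.02 (12.88) with siKeap1-2 and 12.67 to 13.24 (12.94) with siControl. All mice of both Keap1 siRNAs were inside the siControl range, with differences of -0.01 ± 0.07 and -0.08 ± 0.07 (adjusted p = 0.932 and 0.568). At its dimmer probe set (1419399_at) Mttp gave 0.01 ± 0.08 and -0.06 ± 0.08.

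The dimmer probe set of Apob, 1457554_at, behaved differently from the brightest. Its log2 signal was 10.37 to 11.42 (median 11.11) with siKeap1-1, 10.99 to 11.36 (11.20) with siKeap1-2 and 8.80 to 11.03 (9.21) with siControl. It was higher by 1.28 ± 0.29 with siKeap1-1 (limma, adjusted p = 0.00523) and by 1.56 ± 0.29 with siKeap1-2 (adjusted p = 0.00148), with 5 and 7 of 8 mice above all siControl mice. The exact permutation p was 0.0073 and 0.000311 (two-sided). The siControl mice split by replicate number, at 10.26 to 11.03 in replicates 1 to 3 and 8.80 to 9.44 in replicates 4 to 8. The siKeap1-1 mice split the other way, at 10.37 to 10.43 in replicates 1 to 3 and 11.10 to 11.42 in replicates 4 to 8. The 18S control probe set split at the same numbers in the same directions, and its own difference from siControl was 1.23 for siKeap1-1 and 1.18 for siKeap1-2 (p = 0.00435 and 0.00155, two-sided exact permutation). With the 18S signal as a covariate the differences of this Apob probe set were -0.02 (adjusted p = 0.95) and 0.31 (adjusted p = 0.286). With the control group reduced to its replicates 1 to 3 they were 0.19 and 0.47 and did not pass the test, and within replicates 1 to 3 of all groups they were -0.34 and 0.55. Within replicates 4 to 8 they were 2.26 and 2.17. Over the same replicates, the brightest Apob probe set lay at 13.98 to 14.07 in siControl replicates 1 to 3 and at 14.14 to 14.20 in replicates 4 to 8, the opposite order. The 2 probe sets of Apob therefore gave differences of opposite sign, and no change of Apob is stated from the dimmer one.

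**Figure D2:**
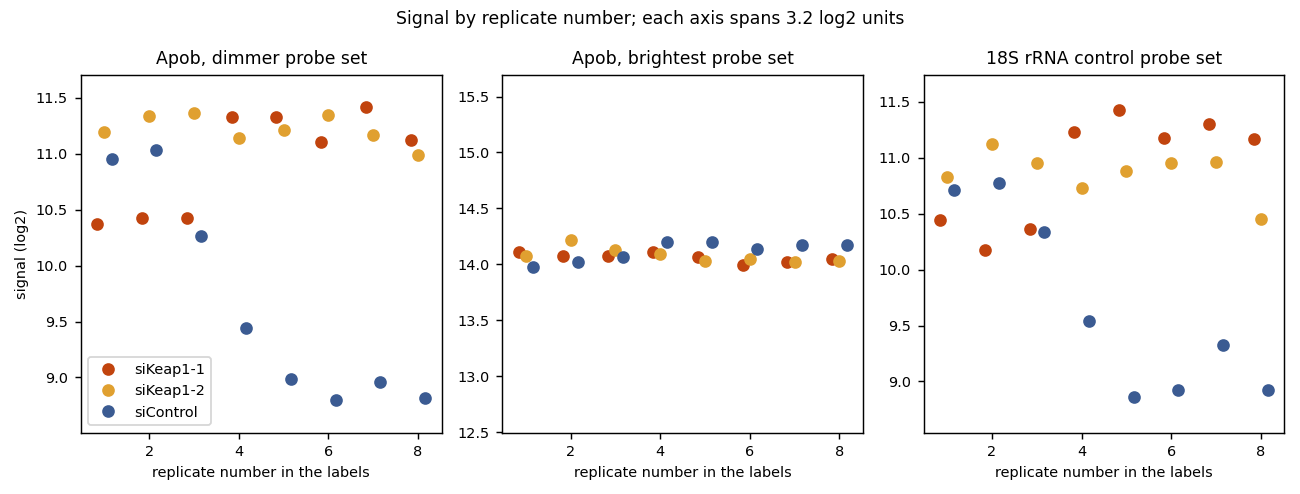
Log2 signal against the replicate number of the labels for the dimmer Apob probe set, the brightest Apob probe set and the 18S control probe set (siKeap1-1, siKeap1-2 and siControl side by side, 1 point per mouse, each axis spanning the same number of log2 units). The dimmer Apob probe set and the 18S probe set both change level between replicates 3 and 4 with siControl and with siKeap1-1. The brightest Apob probe set stays between 13.98 and 14.21, and with siControl it lies lower in replicates 1 to 3 than in replicates 4 to 8.

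Apoa1, Apoc3, Apoa4 and Apoa5 stand next to each other on chromosome 9 in the RefSeq annotation (GRCm38.p6), with no other protein-coding gene between them. Apoc3 lay at 14.76 to 14.81 (median 14.80) with siKeap1-1, 14.76 to 14.82 (14.80) with siKeap1-2 and 14.71 to 14.80 (14.80) with siControl. The groups overlapped, and both differences were 0.01 ± 0.04. Apoa5 lay at 13.64 to 13.99 (median 13.79) with siKeap1-1, 13.58 to 14.01 (13.90) with siKeap1-2 and 13.84 to 14.01 (13.89) with siControl. With siKeap1-1, 5 of 8 mice were below all siControl mice, and the difference was -0.11 ± 0.06 (limma, adjusted p = 0.29, exact permutation p = 0.0437, unadjusted). With siKeap1-2 it was -0.04 ± 0.06 (limma, adjusted p = 0.775).

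Apoa4 varied most among the 10 genes. Its brightest probe set (1436504_x_at) lay at 13.40 to 14.34 (median 13.66) with siKeap1-1, 13.30 to 14.50 (13.79) with siKeap1-2 and 13.60 to 14.13 (14.04) with siControl. The Keap1 siRNA groups reached both above and below the siControl mice, with 1 mouse above and 3 below with siKeap1-1 and 2 above and 3 below with siKeap1-2. The differences were -0.24 ± 0.15 (limma, adjusted p = 0.364) and -0.13 ± 0.15 (adjusted p = 0.696), with 95% intervals from -0.55 to 0.07 and from -0.44 to 0.18. At the second probe set (1417761_at) the signal ran over a still wider range, 12.65 to 14.19 with siKeap1-1, 12.80 to 14.57 with siKeap1-2 and 13.00 to 13.76 with siControl. There the differences were -0.28 ± 0.24 and -0.04 ± 0.24, and neither passed the test. Apoa4 is known above all from the intestine. The mean log2 signal of 4 enterocyte markers was 6.94 to 7.37 with siKeap1-1, 6.95 to 7.23 with siKeap1-2 and 6.97 to 7.23 with siControl, 0 of the 4 passed the test with either siRNA, and their part in the Apoa4 signal was not tested. Among these markers Fabp2 had group means of 13.59 to 13.73. The group means of the others were 4.55 to 5.45, below the median of the arrays. The 250 bases before the Apoa4 start (RefSeq, GRCm38.p6, chr9:46240594-46240843, plus strand, 5′ to 3′) are shown because Apoa4 had the widest spread, and they held none of the 5 motifs searched.
Apoa4: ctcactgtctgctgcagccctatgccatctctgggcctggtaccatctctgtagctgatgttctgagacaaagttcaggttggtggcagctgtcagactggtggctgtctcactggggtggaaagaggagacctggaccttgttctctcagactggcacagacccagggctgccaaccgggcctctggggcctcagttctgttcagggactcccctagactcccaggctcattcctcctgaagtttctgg

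Apoe came nearest to the threshold without passing it. Its log2 signal was 14.19 to 14.43 (median 14.30) with siKeap1-1, 14.18 to 14.41 (14.29) with siKeap1-2 and 14.06 to 14.25 (14.21) with siControl. With siKeap1-1, 6 of 8 mice lay above all siControl mice, and with siKeap1-2 5 of 8. The difference was 0.12 ± 0.05 with siKeap1-1 (limma, adjusted p = 0.112) and 0.11 ± 0.05 with siKeap1-2 (adjusted p = 0.204), with 95% intervals from 0.02 to 0.22 and from 0.01 to 0.21. The exact permutation p, unadjusted, was 0.00404 and 0.00761 (two-sided). With an intensity trend and robust moderation in limma, the adjusted p for siKeap1-1 was 0.0316, and with the 18S covariate it was 0.594.

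**Figure D3:**
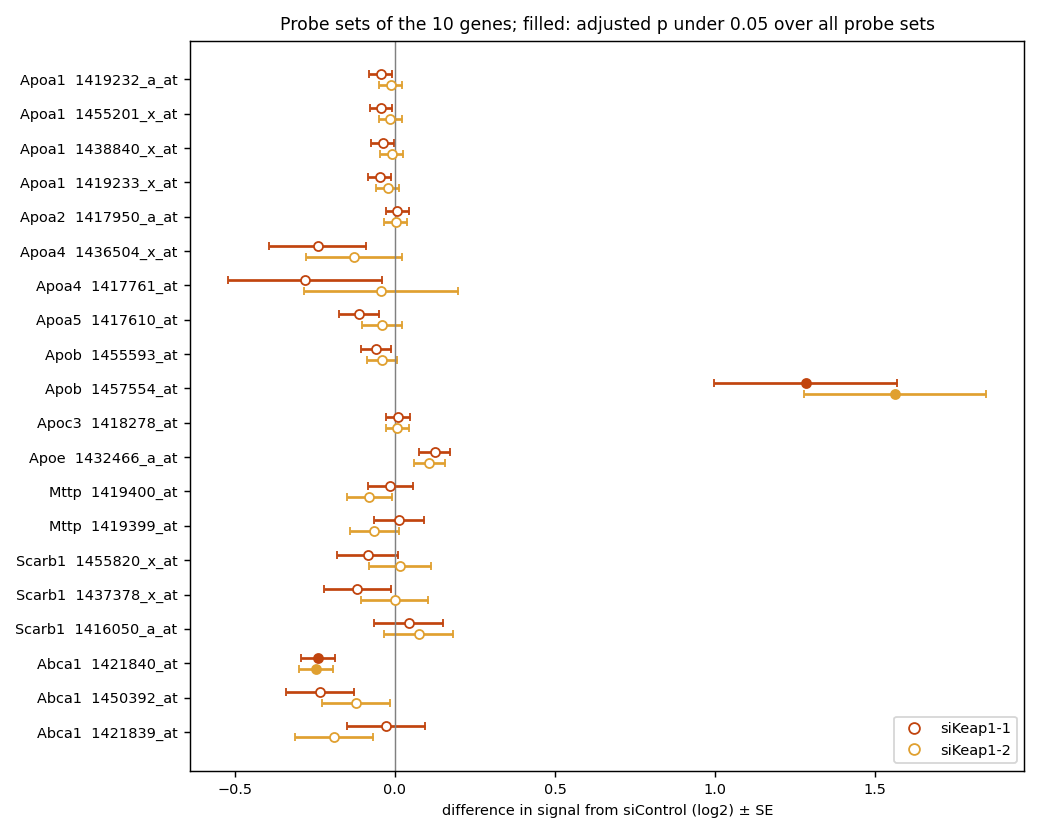
Log2 difference from siControl with its SE for all 20 probe sets of the 10 genes, siKeap1-1 above siKeap1-2 within each row (limma, 8 mice per group, filled points have an adjusted p under 0.05 over all probe sets). The filled points are the dimmer Apob probe set, at 1.28 and 1.56, and the brightest Abca1 probe set, at -0.24 and -0.25.

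The 10 genes also differed in how far mice of the same group lay apart. The SD within groups, pooled over the 3 groups, was 0.014 for Apoa1, 0.018 for Apoa2, 0.025 for Apoc3, 0.067 for Apob and 0.072 for Apoe, against a median of 0.185 over all genes. No gene of the 18193 had a smaller SD than Apoa1. Abca1 (0.089), Apoa5 (0.112) and Mttp (0.131) also lay below the median of all genes. Scarb1 (0.193) lay near it, and Apoa4 (0.319) lay above 86.4% of all genes. The 3 genes with the smallest SD were also those nearest to the highest signal of the arrays, with means of 14.79 to 15.09.

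**Figure D4:**
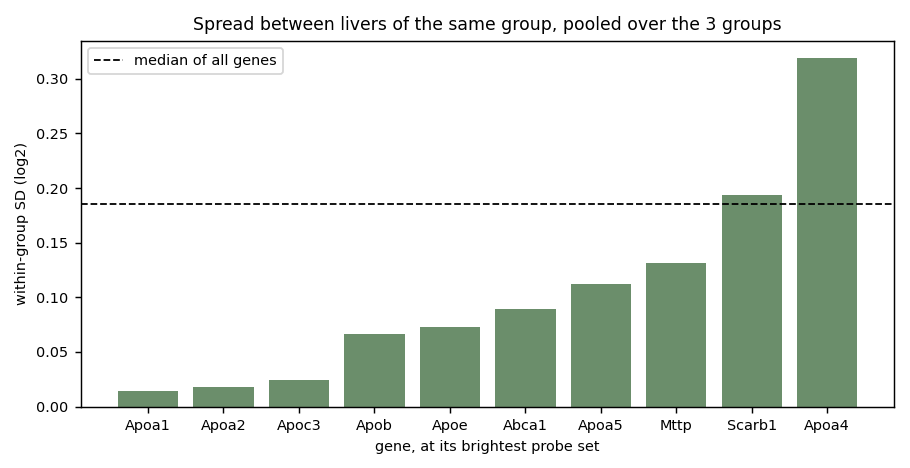
SD of the log2 signal between mice of the same group, pooled over siKeap1-1, siKeap1-2 and siControl, for the brightest probe set of each gene (bars), with the median of all genes as a dashed line. The bars run between 0.014 for Apoa1 and 0.319 for Apoa4, and 8 of the 10 lie below the dashed line at 0.185.

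The siRNAs were also set against each other. Between siKeap1-1 and siKeap1-2, 0 of 20 probe sets and 0 of 10 genes passed the test in limma, against 0.162% of all probe sets and 0.28% of all genes in either direction. At an unadjusted p under 0.05, for which the share over all genes is not given here, 0 of the 10 genes passed. Keap1 itself was lower with siKeap1-1 at its brightest probe set, at -0.76 relative to siKeap1-2 (limma, adjusted p = 0.0022). The largest difference at a brightest probe set was that of Apoa4, -0.11 ± 0.15, with a 95% interval from -0.43 to 0.20. For Apoa1 the 4 probe sets differed by -0.03 each, with limma adjusted p between 0.842 and 0.879 and unadjusted exact permutation p between 0.00124 and 0.0163.

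The other genes of lipoprotein metabolism were examined as 5 lists, at the brightest probe set of each gene with p-values adjusted over all 18193 genes. Of 14 other apolipoprotein genes measured, 0 were higher and 2 lower with siKeap1-1, and 0 of 14 passed the test in either direction with siKeap1-2. The shares called higher and lower over all genes were 5.27% and 5.08% for siKeap1-1, and 3.14% and 4.2% for siKeap1-2. The 2 lower genes were Apom, whose product binds sphingosine 1-phosphate on HDL (-0.27 ± 0.07, limma, adjusted p = 0.0133), and Apof, whose product is known in human as an inhibitor of cholesteryl ester transfer (-0.16 ± 0.04, adjusted p = 0.022). With siKeap1-2 they were at -0.12 ± 0.07 and -0.05 ± 0.04. Over the list the median difference was -0.03 for siKeap1-1 (0.01 over all genes) and -0.01 for siKeap1-2 (-0.01 over all genes).

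Of 17 genes for the assembly and secretion of VLDL, 2 were higher and 2 lower with siKeap1-1 (5.27% and 5.08% of all genes), and 2 were higher and 1 lower with siKeap1-2 (3.14% and 4.2%). Sort1, which encodes the sorting receptor sortilin, was higher by 0.70 ± 0.16 with siKeap1-1 (limma, adjusted p = 0.00496) and by 0.52 ± 0.16 with siKeap1-2 (adjusted p = 0.0448). Mia2, part of the machinery that exports large cargo from the endoplasmic reticulum, was higher by 0.75 ± 0.21 and 1.03 ± 0.21 at a dim probe set, with means of 5.89 with siKeap1-1, 6.17 with siKeap1-2 and 5.13 with siControl. Against siControl replicates 1 to 3 alone, Mia2 differed by 0.03 and 0.31 and was not called. Apobec1, the editing enzyme that makes the short form of apolipoprotein B, was lower, at -0.35 ± 0.08 for siKeap1-1 and -0.30 ± 0.08 for siKeap1-2 (limma, adjusted p = 0.00685 and 0.0247). Tm6sf2, a protein of the endoplasmic reticulum needed for full lipidation of VLDL, was lower with siKeap1-1 (-0.44 ± 0.12, adjusted p = 0.0183) and at -0.21 ± 0.12 with siKeap1-2 (adjusted p = 0.326). The list's median was -0.08 for siKeap1-1 and -0.04 for siKeap1-2.

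Of 11 genes for HDL and cholesterol efflux measured, 2 were higher and 2 lower with either siRNA, where 5.27% and 5.08% of all genes were with siKeap1-1, and 3.14% and 4.2% with siKeap1-2. Abcg5 and Abcg8, the 2 subunits of the transporter that excretes sterols into bile, were higher, by 0.46 ± 0.08 and 0.59 ± 0.13 for siKeap1-1, and by 0.43 ± 0.08 and 0.54 ± 0.13 for siKeap1-2 (limma, adjusted p between 0.000225 and 0.0118). The signal of Abcg5 was 12.85 to 13.39 with siKeap1-1, 12.94 to 13.20 with siKeap1-2 and 12.52 to 12.94 with siControl, and the ranges overlapped only at their ends. The list's median was -0.07 for siKeap1-1 and -0.04 for siKeap1-2, while its median absolute difference was 0.28 and 0.21 (0.11 and 0.10 over all genes). Lipg, which encodes endothelial lipase, was lower, at -0.93 ± 0.20 and -0.89 ± 0.20 (limma, adjusted p = 0.00374 and 0.00737), although its other probe sets ran between -0.96 and -0.04 for siKeap1-1, and between -0.87 and 0.10 for siKeap1-2. Pdzk1, which anchors SR-BI in hepatocytes, was lower, at -0.31 ± 0.07 and -0.23 ± 0.07 (limma, adjusted p = 0.00641 and 0.0455). With the 18S covariate Abcg8, Lipg and Pdzk1 were not called for either siRNA, nor Abcg5 for siKeap1-2. Abcg5 (0.41 and 0.38), Abcg8 (0.64 and 0.58) and Lipg (-0.91 and -0.87) then differed by about as much, and Pdzk1 by less (-0.20 and -0.13). Lcat, the enzyme that esterifies the cholesterol of HDL, gave -0.06 ± 0.06 and -0.04 ± 0.06 and did not pass the test.

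Of 12 genes for lipolysis, uptake and clearance measured, 2 were higher and 1 lower with either siRNA, against 5.27% and 5.08% of all genes for siKeap1-1, and 3.14% and 4.2% for siKeap1-2. Lpl, which encodes lipoprotein lipase, had log2 signals of 12.30 to 13.29 with siKeap1-1, 12.62 to 13.40 with siKeap1-2 and 11.05 to 12.29 with siControl. The siKeap1-1 and siKeap1-2 mice all lay above the siControl mice, by 0.91 ± 0.17 (limma, adjusted p = 0.000722) and 1.11 ± 0.17 (adjusted p = 0.000115) on average. Lpl is made by adipocytes and macrophages more than by adult hepatocytes. The 2 adipocyte markers measured averaged 3.34 to 3.65 with siKeap1-1, 3.31 to 3.82 with siKeap1-2 and 3.01 to 3.67 with siControl, all below the median of the arrays, and the range of the macrophage markers is given with Abca1, but their part in the Lpl signal was not tested. Lmf1, a chaperone that lipoprotein lipase needs to mature, was higher by 0.45 ± 0.08 and 0.28 ± 0.08, while its second probe set gave -0.15 and -0.17. Lrp1, a receptor for remnants, was lower, at -0.21 ± 0.05 and -0.23 ± 0.05 (limma, adjusted p = 0.0103 and 0.0063). The list's median was 0.01 for siKeap1-1 and 0.03 for siKeap1-2, and its median absolute difference was 0.34 and 0.05 (0.11 and 0.10 over all genes).

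Of 17 transcription factor and coactivator genes linked to these pathways, 0 were higher with either siRNA, 3 were lower with siKeap1-1 and 2 with siKeap1-2, where 5.08% and 4.2% of all genes were lower. Nfe2l2, which encodes Nrf2, was lower, at -0.63 ± 0.09 for siKeap1-1 (limma, adjusted p = 2.75e-05) and -0.49 ± 0.09 for siKeap1-2 (adjusted p = 0.000822). Ppargc1a, a coactivator of gluconeogenesis and fatty acid oxidation, was lower with siKeap1-1 (-0.56 ± 0.13, adjusted p = 0.00832) and at -0.36 ± 0.13 with siKeap1-2, and its other probe sets ran between -0.59 and 0.59 over both siRNAs. Cebpa was lower with siKeap1-1 (-0.16 ± 0.04) and Nr1h4, the bile acid receptor FXR, with siKeap1-2 (-0.24 ± 0.07). Hnf4a, a main activator of apolipoprotein genes in hepatocytes, gave -0.00 ± 0.04 and -0.01 ± 0.04, and Nr1h3, the sterol receptor LXR alpha that induces Abca1, gave -0.09 ± 0.06 and 0.01 ± 0.06, and neither passed the test. The list's median was -0.14 for siKeap1-1 and -0.06 for siKeap1-2. Over the 5 lists, 16 of 71 genes measured were called with siKeap1-1 and 12 of 71 with siKeap1-2 (22.5% and 16.9%), against 10.4% and 7.34% of all genes in either direction. The lists were chosen with earlier results of these data known. Most listed genes were bright, and the share called among genes of similar signal is not given here. These counts therefore do not show an excess particular to the lists. With the 18S signal as a covariate 8 of the 16 and 2 of the 12 were still called, those with siKeap1-2 being Sort1 and Lpl. Several of the lost calls had differences of about the same size and a larger SE, as for Tm6sf2 (-0.44 ± 0.17) and Ppargc1a (-0.60 ± 0.19) with siKeap1-1. Mia2 was then at -0.03 for siKeap1-1 and 0.28 for siKeap1-2. Against siControl replicates 1 to 3 alone 7 and 6 calls remained, within replicates 1 to 3 of each group 1 and 0, and within replicates 4 to 8 of each group 11 and 5. The share of all genes still called under these settings is not given here. These counts therefore do not show whether the listed genes lost more calls than other genes. The siKeap1-2 calls of Sort1, Lmf1 and Pdzk1 lay close to the threshold and were lost without any of 11, 11 and 12 of the 16 mice compared.

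**Figure D5:**
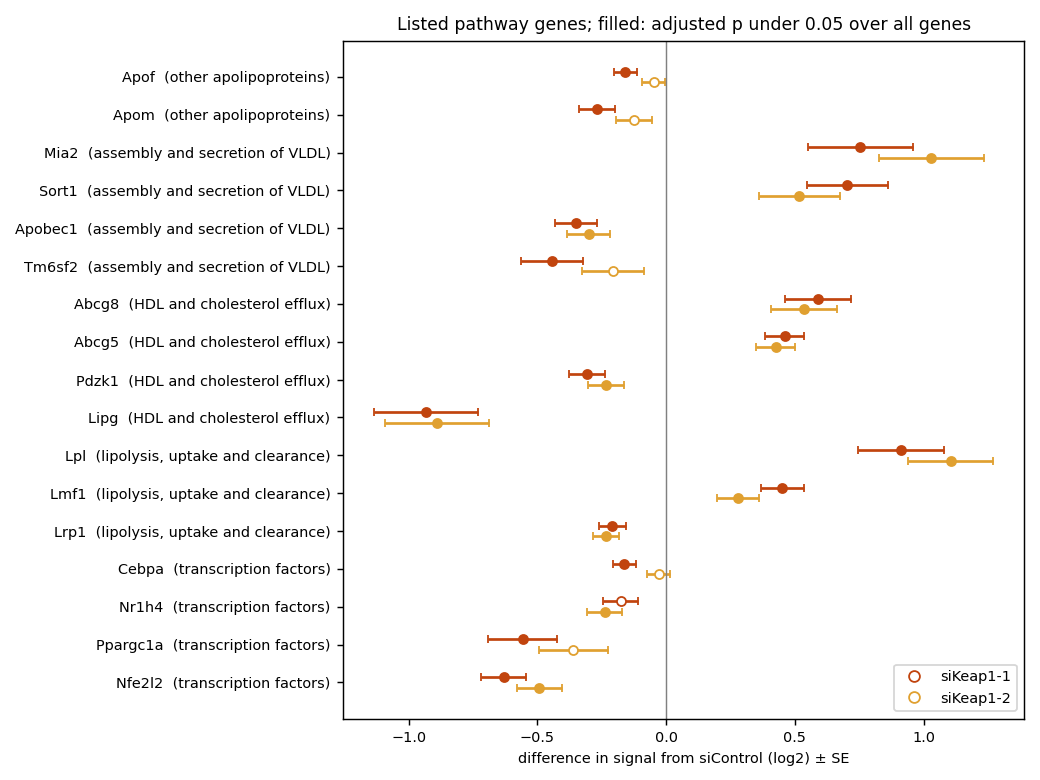
Log2 difference from siControl with its SE for the 17 listed genes that passed the test with either siRNA, siKeap1-1 above siKeap1-2 within each row (limma, 8 mice per group, filled points have an adjusted p under 0.05 over all genes). Lpl, Mia2, Sort1, Abcg5, Abcg8 and Lmf1 lie to the right of 0 with both siRNAs, and Lipg at -0.93 and -0.89 lies farthest to the left.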

How the data were processed

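The deposited values are log2 signals, which the authors obtained by RMA, a method that corrects background, normalizes the arrays and summarizes the probes of a probe set (version not given in the sources used here). Of 45101 probe sets, 64 controls were left out. The platform annotation gave 1 gene for 34945 of the 45037 tested, several for 932 and none for 9160. For group differences all 3 groups entered 1 linear model (limma 3.58.1 with lmFit and eBayes, R 4.3.3), and Benjamini-Hochberg adjustment ran over all probe sets or over 18193 genes at their brightest probe set. Values of the 10 genes come from the fit of probe sets, those of the lists and markers from the fit of genes. The two-way ANOVA of the methods needs the feeding state, which the labels do not give, and was not fitted. The test was checked on simulated data. Named from the lists were genes past an adjusted p of 0.05, at most 4 per list and comparison. Lcat, Hnf4a, Nr1h3, Vsig4, Marco, Fabp2, Ass1 and Tat were named after their values were seen. The members, lists and tests were chosen with earlier results of these data known. Replicates are mice, so p-values rest on the spread between these mice, and the number of arrays limits the precision. In limma that spread is moderated towards the spread of all probe sets or genes. Arrays of a group correlated at 0.988 to 0.996, and none was a copy of another. Alternatives covered normalization, controls, covariates, moderation, the choice of probe set and leaving out each mouse. Upstream sequences are from RefSeq. Plots used matplotlib 3.10.9 under Python 3.11.15.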

Additional observations from a re-analysis of the deposited data

Results flagged for a closer look

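In the siControl group, replicate 4 had a log2 signal of 14.705 for Apoc3, below the other 7 mice, of which the nearest lay at 14.794 and the farthest at 14.805. The gap to the nearest mouse was 0.892 of the whole range of the group. Of 60 groups of 8 values tested in this way over the 20 probe sets, this was the only one with a mouse so far from the rest. Chance flags about 1 in 20 groups.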

How the results depend on the processing

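Of the values of the 10 genes recomputed under alternatives that kept all mice or used subsets of replicates, 352 kept their direction and their side of the threshold, 38 changed sign, 13 lost the call and 1 gained it. The causes were not tested. The share of all probe sets or genes called under each alternative is not given here, so a lost call is not a result about the 10 genes alone.

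With the 18S signal as a covariate, 0 probe sets were higher, 0 were lower and 0 genes were lower for either siRNA, and the sign turned for Apoa2 (-0.00525 for siKeap1-1, -0.00975 for siKeap1-2), Apob (0.0234 and 0.039), the dimmer Apob probe set (-0.0236 for siKeap1-1), Scarb1 (-0.0223 for siKeap1-2) and Mia2 (-0.0257 for siKeap1-1). Against siControl replicates 1 to 3 alone, 0 probe sets were higher for siKeap1-1, and 0 were higher, 0 lower and 0 genes lower for siKeap1-2. Apob was then at 0.0378 and 0.0568, and Apoc3 at -0.00255 and -0.00498. Against siControl replicates 4 to 8 alone, Mttp was at 0.0724 and 0.00673, and Scarb1 at -0.0303 for siKeap1-2.

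In replicates 1 to 3 alone, chosen after seeing the data, 0 probe sets were higher, 0 lower and 0 genes lower for either siRNA. There Apoa2 was at -0.0158 and -0.0065 (-0.00927 between the siRNAs), Apob at 0.0613 and 0.116, its dimmer probe set at -0.343 for siKeap1-1, Apoc3 at -0.00697 and -0.00683 (-0.000133 between the siRNAs), Apoa5 at 0.0117 and Scarb1 at -0.0143 for siKeap1-2, Apoe at -0.00887 between the siRNAs, Mia2 at -0.228 for siKeap1-1 and Tm6sf2 at 0.0248 for siKeap1-2. In replicates 4 to 8 alone, 0 probe sets and 0 genes were lower for either siRNA, Mttp was at 0.0529 for siKeap1-1, and between the siRNAs Apob was at 0.00248 and its dimmer probe set at 0.0872.

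With the first residual component as a covariate, 1 gene, Apoe, was higher for siKeap1-1. With an intensity trend and robust moderation, 2 probe sets and 1 gene were higher and 2 genes lower for siKeap1-1, with Apoe and Apoa1 added. With all probe sets of a gene averaged, 1 gene was higher, Apob (0.612 and 0.762), and 0 were lower for either siRNA. At more than 2-fold with p under 0.01 before adjustment, 0 probe sets and 0 genes were lower. With arrays centred on their medians, Apoa2 was at -0.00245 and -0.00845 and Apoc3 at -0.000125 and -0.00355. After quantile normalization Apoa1 was at 0 for siKeap1-1 and 0.00476 between the siRNAs, Apoa2 at -0.00304 for siKeap1-2 and Abca1 at -0.00485 between the siRNAs.

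No count of members called changed when 1 mouse was left out. Values that then changed sign were Apoc3 (-0.00207 to 0.0146 for siKeap1-1, -0.00451 to 0.0123 for siKeap1-2, -0.0028 to 0.00756 between the siRNAs), Mttp (-0.056 to 0.0261 for siKeap1-1), Apoa2 (-0.00101 to 0.00658 for siKeap1-2, -0.00111 to 0.00877 between the siRNAs), Apoa5 (-0.0604 to 0.0012) and Scarb1 (-0.030 to 0.0559) for siKeap1-2, and Apob (-0.0268 to 0.000196), Apoe (-0.0015 to 0.0346) and Abca1 (-0.0113 to 0.0238) between the siRNAs. Among the listed genes no call for siKeap1-1 was lost in this way, while for siKeap1-2 the call was lost in 3 of 16 such repeats for Apobec1, 6 for Nr1h4, 11 for Sort1 and Lmf1 and 12 for Pdzk1, with limma adjusted p up to 0.0932.

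Same-numbered mice of siKeap1-1 and siControl correlated in their deviations over 0.1 in 2 of 8 pairs, those of siKeap1-2 and siControl in 5 of 8, and those of the Keap1 siRNAs in 2 of 8 (correlations between -0.17 and 0.28). Of the 8 mice, 0, 2 and 2 correlated best with their own number. Since not every pair lay over 0.1 and the labels name nothing shared, the numbers were not read as pairs. With the replicate number as a block, 1 member probe set was higher and 1 lower for either siRNA, as without it, and Abca1 had an adjusted p of 0.0179 and 0.0225 in limma. Of the listed calls, all 16 for siKeap1-1 and 11 of 12 for siKeap1-2 were kept, and that of Pdzk1 was lost (limma, adjusted p = 0.0578).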
